A study of Mus musculus with 12 samples.

Results

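Gpr110, Gprc5b, Synj2 and Tox2 were 4 of the 23284 genes listed in a liver RNA-sequencing table. They were picked by name because their transcripts were higher in mice with a human APOA1 transgene than in mice without it on chow. Gpr110 was also picked because it was lower on Western diet. The chow difference and the fall of Gpr110 are therefore given below as descriptions, without a test. The 4 genes are followed across the genotype and diet groups of the study. Of the groups' differences, only that made by the transgene on Western diet shares no library with the chow comparison, and it is the one that was tested. The variance in that test was pooled over all 12 libraries, the chow libraries included.

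All 12 mice were labelled Apoa1-/- Apoe-/-, so both the carrier and the control animals were labelled as lacking mouse apolipoprotein A-I, around which high-density lipoprotein is built, and apolipoprotein E, a ligand for lipoprotein uptake. Those labelled Apoa1-/- Apoe-/- alone are called DKO, and those labelled human APOA1 transgenic on the same double knockout are called DKO/hA1. For 22 weeks the mice received either a normal laboratory diet (chow) or Western diet, which is rich in fat. The DKO mice gave 4 libraries on chow and 3 on Western diet, the DKO/hA1 mice gave 2 and 3, and these n hold for every group value below. The promoter of the transgene, the number of founder lines, and the strain, sex and age of the mice are not given in the sources used here.

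Gpr110, listed in newer annotation as Adgrf1, is an adhesion G protein-coupled receptor. In mouse neurons it is known as the receptor of synaptamide, the ethanolamide of docosahexaenoic acid, through which it raises cyclic AMP. Gprc5b is a class C orphan receptor of a family first found as genes induced by retinoic acid. Synj2, synaptojanin 2, removes phosphates from inositol phospholipids and acts in clathrin-mediated endocytosis. Tox2 is a DNA-binding protein of the high mobility group box family, known for its part in natural killer cell and follicular helper T cell development. Hepatocytes make up most of the liver's RNA, and a transcript in whole liver can come from hepatocytes or from other resident cells. In bulk tissue, fewer cells of a type and less RNA per cell cannot be told apart.

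The promoter windows of the 4 genes are shown because their transcripts were high together in the same 2 libraries. They are RefSeq sequences on GRCm38.p6, from 250 bases before to 50 bases after an annotated start, 5′ to 3′ on the strand of the gene. Capitals mark matches, on either strand, to the 6 motifs searched.
Gpr110 (chr17:43270097-43270396, plus strand): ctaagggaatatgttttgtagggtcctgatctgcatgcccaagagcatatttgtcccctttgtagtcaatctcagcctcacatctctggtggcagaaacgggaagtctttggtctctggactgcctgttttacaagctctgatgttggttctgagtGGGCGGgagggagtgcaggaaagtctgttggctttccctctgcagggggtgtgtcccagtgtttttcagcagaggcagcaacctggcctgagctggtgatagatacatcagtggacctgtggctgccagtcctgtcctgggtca
Gprc5b (chr7:118995162-118995461, minus strand): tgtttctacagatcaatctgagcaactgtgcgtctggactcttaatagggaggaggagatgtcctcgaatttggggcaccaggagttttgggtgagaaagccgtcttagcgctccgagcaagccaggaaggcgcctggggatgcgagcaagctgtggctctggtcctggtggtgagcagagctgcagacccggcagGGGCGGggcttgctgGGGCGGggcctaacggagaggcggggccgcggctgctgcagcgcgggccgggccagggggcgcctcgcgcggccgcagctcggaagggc
Synj2 (chr17:5975336-5975635, plus strand): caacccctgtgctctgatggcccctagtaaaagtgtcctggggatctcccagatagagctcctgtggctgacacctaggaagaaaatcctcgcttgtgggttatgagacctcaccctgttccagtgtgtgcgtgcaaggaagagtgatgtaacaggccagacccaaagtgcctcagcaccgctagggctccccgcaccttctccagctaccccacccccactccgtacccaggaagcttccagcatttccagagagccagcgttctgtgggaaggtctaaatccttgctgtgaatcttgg
Tox2 (chr2:163225204-163225503, plus strand): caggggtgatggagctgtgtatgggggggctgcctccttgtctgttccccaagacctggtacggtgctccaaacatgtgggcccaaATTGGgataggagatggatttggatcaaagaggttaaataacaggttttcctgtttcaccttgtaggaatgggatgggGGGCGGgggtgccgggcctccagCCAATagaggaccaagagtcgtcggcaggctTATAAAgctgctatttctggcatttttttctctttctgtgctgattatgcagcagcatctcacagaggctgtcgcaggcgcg

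The motifs were the TATA box TATAAA, the GC box GGGCGG, the CCAAT box CCAAT, the nuclear receptor half-site AGGTCA, the cyclic AMP response element TGACGTCA and the E-box CACGTG. The Gprc5b window held 2 GC boxes and the Gpr110 window held 1. The Tox2 window held 1 TATA box, 1 GC box and 2 CCAAT boxes, 1 of them as ATTGG on the other strand. None of the 6 motifs was found in the Synj2 window. Among 32851 promoter windows of the same length, 35.7% held a GC box, 37.4% a CCAAT box and 13.6% a TATA box. The half-site was in 16.3%, the E-box in 7.15% and the cyclic AMP response element in 1.79% of windows, and in none of the 4 shown. No motif was present in all 4 windows. The Gprc5b window was 66.3% G and C with 23 CpG dinucleotides, against a median of 52.7% and 7 over all windows. Gpr110 (52.7%, 2 CpG), Synj2 (56%, 6 CpG) and Tox2 (53.3%, 8 CpG) were nearer to that median in base composition. A match is a string of letters, and a missing match says only that those letters are not in this window. RefSeq lists 2 windows for Synj2 and 5 for Tox2, and the start used in these livers was not measured.

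The genes lie on 3 chromosomes of the GRCm38 assembly. Gpr110 spans chr17:43270329-43324737 on the plus strand with 16 exons, and Synj2 spans chr17:5941280-6044290 on the plus strand with 26 exons in its principal transcript. Gprc5b spans chr7:118972047-118995211 on the minus strand with 4 exons. Tox2 spans chr2:163203125-163324170 on the plus strand with 9 exons. The end of Gprc5b overlaps Iqck on the opposite strand, and the end of Synj2 overlaps Serac1 on the opposite strand. Whether the counting used strand is not given in the sources used here. Iqck had group means of 0.0102 to 0.0662 FPKM and Serac1 of 1.11 to 1.23 FPKM, and the Serac1 means were close to each other in all 4 groups. FPKM, fragments scaled to the length of the transcript and to the mapped fragments of the library, is the unit of all levels given here.

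Across the whole table, FPKM summed to between 379689 and 578927 per library, and correlations between libraries across genes lay between 0.918 and 0.986. Depth was estimated from the step that 1 fragment adds to low values, and came to about 6610000 to 16700000 fragments per library, lowest in DKO chow replicate 2 and DKO Western diet replicate 3. Apoa1, the mouse gene labelled as knocked out, was listed in DKO at 40.4 ± 7.78 FPKM (SD) on chow and 59.4 ± 18.6 on Western diet, and in DKO/hA1 at 227 ± 13.6 and 189 ± 60.7. Apoe, also labelled as knocked out, was listed at 12.9 to 89.8 FPKM over the libraries. The table gives no separate level for human APOA1, so whether Apoa1 holds fragments of the transgene was not tested. A gene was tested if it reached 1 FPKM in at least 2 libraries, and 11546 genes did. Gpr110 passed through both chow groups and Synj2 through several groups, whereas Gprc5b and Tox2 passed only through DKO/hA1 chow, the group in which they were high. A difference on chow was thus a condition for Gprc5b and Tox2 to be tested at all. Differences were fitted with limma on log2(FPKM + 1), which shrinks the differences of genes whose levels are around 1 FPKM or less, and ± after a log2 difference is its SE. A gene is called where limma's Benjamini-Hochberg adjusted p over the 11546 genes was below 0.05.

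Gpr110, the adhesion receptor, was the most abundant of the 4 on chow. Its levels in the 4 DKO chow libraries were 2.08, 2.09, 2.29 and 2.01 FPKM, and in the 2 DKO/hA1 chow libraries 6.64 and 5.70 FPKM. On Western diet they were 0.263, 0.225 and 0.119 FPKM in DKO and 0.530, 0.384 and 0.667 FPKM in DKO/hA1. The 4 groups did not overlap, and fell in the order DKO/hA1 chow, DKO chow, DKO/hA1 Western diet, DKO Western diet. Such separations, here and for the other genes below, include the chow libraries by which the genes were picked. The share of all genes tested with groups apart in this way was not counted. The group means in that order were 6.17 ± 0.661, 2.12 ± 0.121, 0.527 ± 0.141 and 0.202 ± 0.0748 FPKM (SD). Among tested genes, 49.8% had a lower mean than Gpr110 in DKO/hA1 chow and 22.7% in DKO chow, against 1% and 0.502% on Western diet.

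Gprc5b, the orphan receptor, was high in DKO/hA1 chow alone. Its levels were 0.113, 0.0325, 0.0849 and 0.147 FPKM in DKO chow and 1.09 and 1.16 FPKM in DKO/hA1 chow. On Western diet they were 0.194, 0.135 and 0.121 FPKM in DKO and 0.152, 0.299 and 0.227 FPKM in DKO/hA1. The DKO/hA1 chow values lay above all 10 others, and the remaining 3 groups were low and each overlapped at least 1 other. Means were 1.13 ± 0.051 FPKM in DKO/hA1 chow, 0.226 ± 0.0737 in DKO/hA1 Western diet, 0.15 ± 0.0387 in DKO Western diet and 0.0945 ± 0.0485 in DKO chow (SD).

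Synj2, the phosphoinositide phosphatase, had group means nearer to each other, in ratio, than the other 3 genes. Its levels were 1.14, 0.499, 0.712 and 0.641 FPKM in DKO chow and 2.88 and 2.56 FPKM in DKO/hA1 chow. On Western diet they were 1.25, 1.15 and 1.22 FPKM in DKO and 1.44, 1.38 and 2.07 FPKM in DKO/hA1. In the deposited FPKM the groups did not overlap, though DKO chow replicate 1 came close to the DKO Western diet libraries. Once the libraries were scaled, the DKO chow and DKO Western diet groups overlapped. The order of group means from the highest was DKO/hA1 chow, DKO/hA1 Western diet, DKO Western diet, DKO chow. Means in that order were 2.72 ± 0.222, 1.63 ± 0.38, 1.21 ± 0.05 and 0.748 ± 0.275 FPKM (SD).

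Tox2, the transcription factor, was again high in the 2 DKO/hA1 chow libraries, at 1.76 and 2.16 FPKM. The DKO chow libraries had 0.0982, 0.0955, 0.349 and 0.494 FPKM, and Western diet gave 0.215, 0.202 and 0.0888 FPKM in DKO and 0.198, 0.225 and 0.623 FPKM in DKO/hA1. Both DKO/hA1 chow values exceeded all others, while the remaining 3 groups overlapped one another. Means were 1.96 ± 0.288 FPKM in DKO/hA1 chow, 0.349 ± 0.238 in DKO/hA1 Western diet, 0.259 ± 0.197 in DKO chow and 0.168 ± 0.0692 in DKO Western diet (SD).

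**Figure D1:**
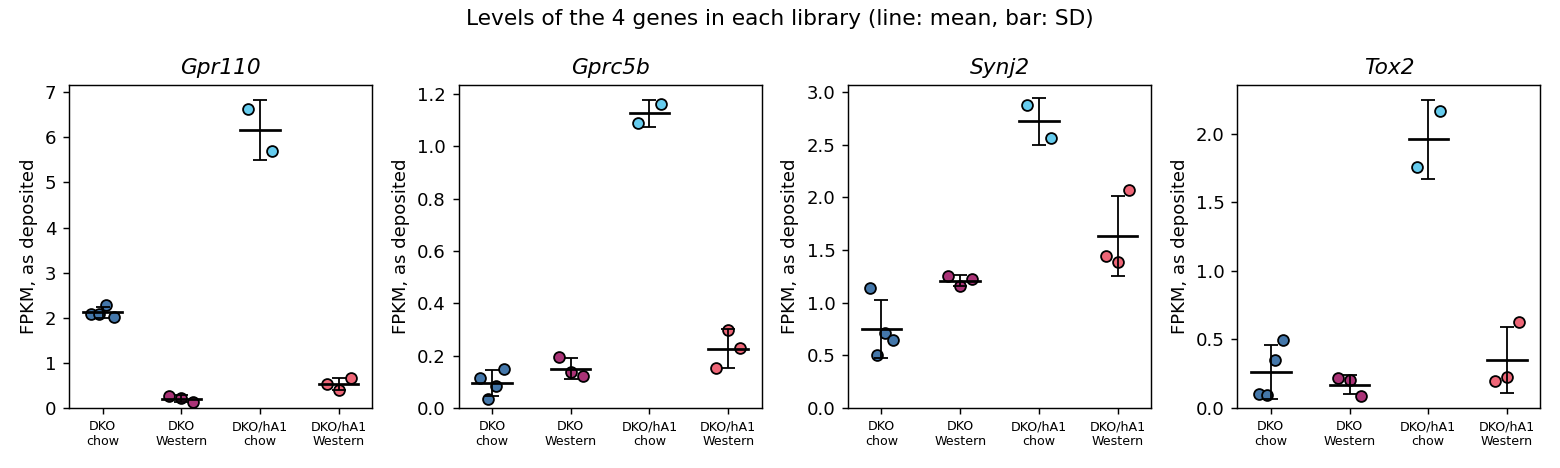
Level of each of the 4 genes in each library (points, FPKM as deposited, linear axis of its own for each gene), with the group mean as a line and the SD as a bar, by genotype and diet (n = 4 and 3 for DKO, 2 and 3 for DKO/hA1, on chow and Western diet). The DKO/hA1 chow libraries are the highest for every gene, and Gpr110 is the gene that is low in both Western diet groups relative to both chow groups.

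The number of fragments behind these levels was estimated from the depth and the length of the principal transcript, and is approximate. Gpr110 rested on an estimated 281 to 395 fragments per library in DKO/hA1 chow, 53.1 to 120 in DKO chow, 24.7 to 42 in DKO/hA1 Western diet and 3.22 to 11.9 in DKO Western diet. Synj2 rested on at least 13.4 fragments in every library and on up to 181. Gprc5b had 67.2 to 76.2 estimated fragments in DKO/hA1 chow, but 0.971 to 22.6 elsewhere. Tox2 had 45.5 to 46.3 in DKO/hA1 chow, but 1.05 to 17.1 elsewhere. The low groups of Gprc5b and Tox2, and Gpr110 in DKO Western diet, were therefore measured with few fragments, and the order among those low groups was not resolved at this depth. No counting interval is given because the fragments are estimates.

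**Figure D2:**
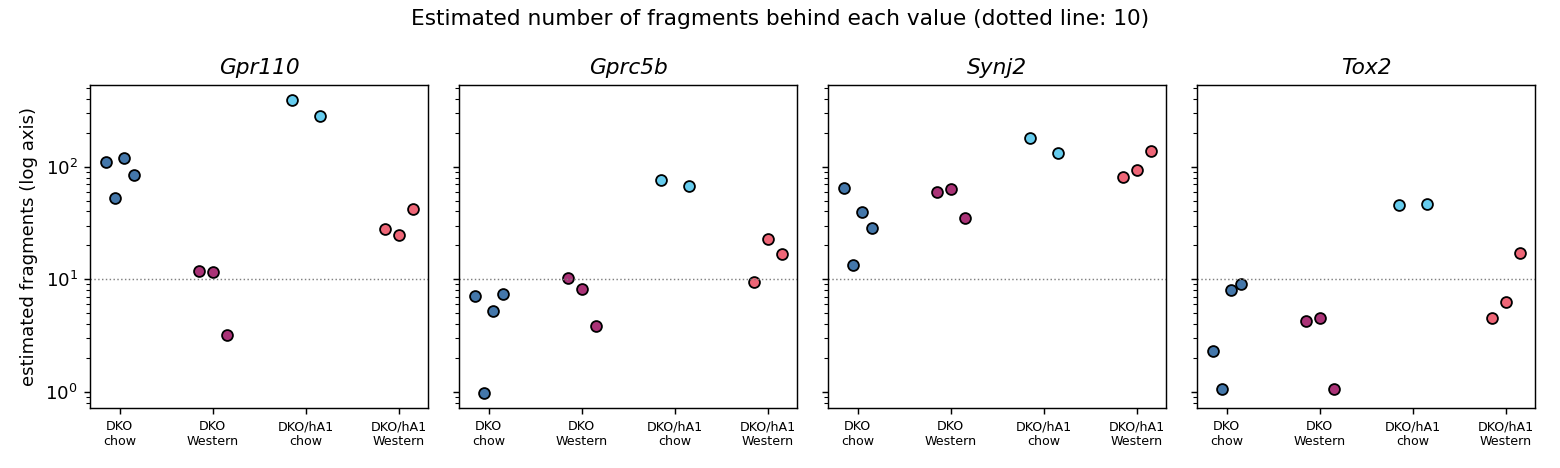
Estimated number of fragments behind each gene's value in each library (points, log axis, dotted line at 10), from the estimated depth and the principal transcript's length. The DKO/hA1 chow libraries hold 45.5 or more fragments for every gene, whereas Gprc5b and Tox2 fall to about 1 fragment in the least covered libraries.

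The effect of the transgene on chow is the difference by which the genes were picked. The ratio of group means, DKO/hA1 chow over DKO chow, was 11.9 for Gprc5b, 7.56 for Tox2, 3.64 for Synj2 and 2.91 for Gpr110. On log2(FPKM + 1) the differences were 1.24 ± 0.19 for Tox2, 1.17 ± 0.12 for Gpr110, 1.09 ± 0.16 for Synj2 and 0.96 ± 0.14 for Gprc5b. Of the 9 genes called in either direction (0.0779% of those tested), 6 were higher with the transgene (0.052%). All 4 members were among them, and nothing is read from that count because the contrast chose the members. The other 2 were Gm17746, a gene known by its model number, and Apoa1. They differed by 1.87 ± 0.19 and 2.44 ± 0.29. Among genes higher with the transgene, ranked by p, Tox2 was the last one called, and the next 3 were Ppp1r13b at 0.65 ± 0.11, Nupr1 at 3.08 ± 0.52 and Scd2 at 1.21 ± 0.21. All libraries of DKO/hA1 chow lay above all of DKO chow for the 4 members, as they did for 9.99% of genes tested. DKO/hA1 chow had 2 libraries, and the sample codes of both begin with the same number as that of DKO chow replicate 3. The meaning of the code is not given in the sources used here. DKO chow replicate 3 had 2.29 FPKM of Gpr110, 0.0849 of Gprc5b, 0.712 of Synj2 and 0.349 of Tox2. For Gprc5b, Synj2 and Tox2 these values lay inside the range of the other DKO chow libraries, and for Gpr110 the value was the highest of the 4 but far below both DKO/hA1 chow values.

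The transgene effect on Western diet asks whether the same genes differed in libraries outside the chow comparison. Gpr110 was picked in part for its low level in the Western diet libraries, though not for a difference between them. None of the 4 was called, and limma called 0 of 11546 genes in this comparison, with 687 genes (5.95%) at an unadjusted p below 0.05. Apoa1, called on chow, was also uncalled here, although it lay at 122 to 240 FPKM with the transgene and 40.2 to 77.4 without it. A missing call in this comparison therefore does not show that a gene did not differ. Gpr110 was higher by 0.34 ± 0.12 with the transgene (95% interval 0.09 to 0.60, unadjusted p = 0.0131, limma adjusted p = 0.782), from 0.202 to 0.527 FPKM, a ratio of means of 2.61. With only the 2 Western diet groups in the fit, the SE of Gpr110 was 0.14 and its limma adjusted p 0.983. Its 3 DKO/hA1 libraries lay above its 3 DKO libraries. Synj2 differed by 0.25 ± 0.15 (95% interval -0.07 to 0.58, limma adjusted p = 0.907), from 1.21 to 1.63 FPKM, a ratio of 1.35. Its 3 DKO/hA1 libraries also lay above its 3 DKO libraries, which was so for 4.96% of genes tested. The direction without overlap was thus shared by 2 of the 4 members.

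Replicate 1 of both Western diet groups shares a leading code number too. With that number as a random block (consensus correlation 0.552), the Western diet differences were 0.32 ± 0.11 for Gpr110 and 0.22 ± 0.13 for Synj2, and limma's adjusted p was 0.686 and 0.859.

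For the other 2 genes, Gprc5b and Tox2, the Western diet groups overlapped. Both entered the test only through their levels in DKO/hA1 chow, and their Western diet levels rested on few fragments. Their p-values here therefore cannot decide whether they differed, and are given as descriptions. Gprc5b differed by 0.09 ± 0.13 (95% interval -0.19 to 0.37, limma adjusted p = 0.984), a ratio of means of 1.51. Tox2 differed by 0.20 ± 0.18 (95% interval -0.19 to 0.58, limma adjusted p = 0.965), a ratio of 2.07 that came mostly from DKO/hA1 Western diet replicate 3. Without that library the Tox2 difference was 0.06 and that of Synj2 0.14, while that of Gpr110 was 0.28. An exact two-sided permutation test on each gene gave p = 0.1 for Gpr110 and Synj2, 0.2 for Gprc5b and 0.3 for Tox2, where 0.1 is the smallest p that 3 against 3 libraries allow.

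The size of the Gpr110 difference depended on the value added before the log2, because its Western diet levels were far below 1 FPKM. With 0.1 added in place of 1, it was 1.07 ± 0.25 on Western diet, with an adjusted p of 0.866 in limma. On the scale of the ratio of means, Gpr110 was 2.91 times as high with the transgene on chow and 2.61 times as high on Western diet. The difference between the 2 transgene effects of Gpr110 was -0.83 ± 0.17 with 1 added and -0.39 ± 0.37 with 0.1 added, so whether its response to the transgene differed between diets turned on the scale. With 1 added, the same difference was -0.87 ± 0.19 for Gprc5b, -0.84 ± 0.22 for Synj2 and -1.04 ± 0.26 for Tox2. These values contain the chow comparison and are given without a test. Over all genes tested, 2 genes (0.0173%) were called for this difference.

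**Figure D3:**
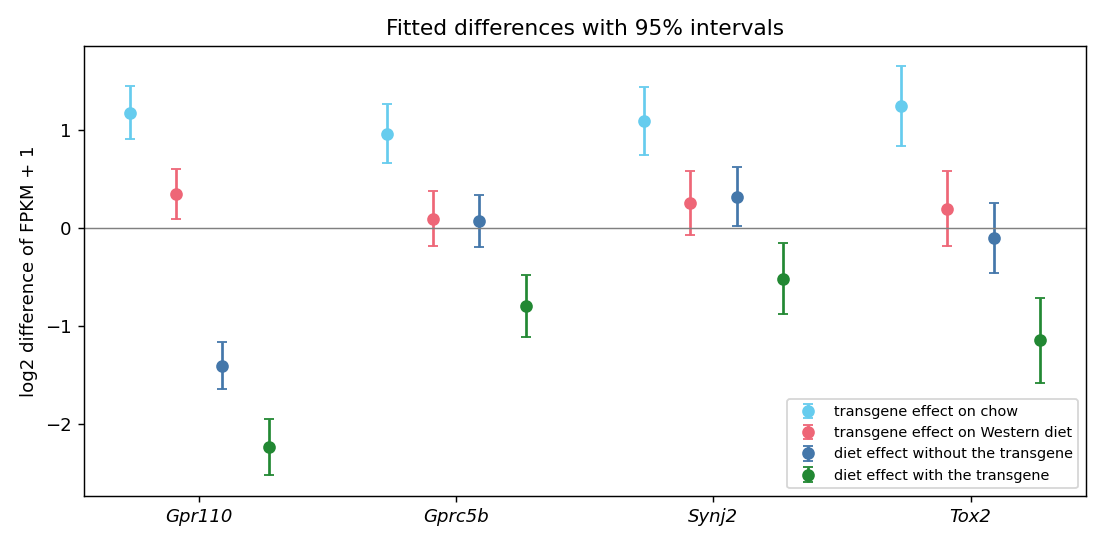
Difference between groups for each gene on log2(FPKM + 1) (points, with 95% intervals as lines), for the transgene on chow, the transgene on Western diet, and diet without and with the transgene. The chow transgene differences, which chose the genes, lie between 0.96 and 1.24, those on Western diet lie between 0.09 and 0.34, and the diet differences of Gpr110 are the lowest in both genotypes.

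In mice without the transgene, Gpr110 was lower and Synj2 higher on Western diet than on chow. Gpr110 mean levels were 10.5-fold lower on Western diet than on chow in DKO, from 2.12 to 0.202 FPKM, a log2 difference of -1.41 ± 0.11. This fall is one of the reasons the gene was picked, and is given without a test. Over all genes tested, 13 (0.113%) were called in this comparison. Each of its Western diet libraries lay below each of its chow libraries, as for 5.4% of genes. Synj2 means were 1.62-fold higher on Western diet in DKO (0.32 ± 0.14), and are likewise given without a test. Its groups were apart in the deposited FPKM but overlapped once the libraries were scaled, where 7.24% of genes had every Western diet library above every chow library. Gprc5b (0.07 ± 0.12) and Tox2 (-0.11 ± 0.16) had overlapping groups in DKO, and their intervals included 0.

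With the transgene, all 4 genes were lower on Western diet than on chow. Gpr110 means were 11.7-fold lower, a log2 difference of -2.24 ± 0.13, and Tox2 means 5.62-fold lower, a difference of -1.15 ± 0.20. Gprc5b means were 4.98-fold lower (-0.80 ± 0.14) and Synj2 means 1.67-fold lower (-0.52 ± 0.17). Each gene's 3 Western diet libraries lay below its 2 chow libraries, as they did for 16.2% of genes tested. Over all genes, 166 (1.44%) were called. This comparison uses the DKO/hA1 chow libraries in which the genes were picked as high, so these differences are not separate from that choice and are given without a test. Gpr110 was thus lower on Western diet in both genotypes. The Synj2 difference was positive in DKO and negative in DKO/hA1.

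Over the 12 libraries, likeness between genes was measured as the root mean square difference of their standardised log2 profiles, where 0 is the same shape. Gprc5b and Tox2 were the most alike of the members, at 0.333, and each was the other's closest gene but one among all genes tested. Gprc5b and Synj2 differed by 0.55, Synj2 and Tox2 by 0.69, and Gpr110 and Tox2 by 0.691. Gpr110 stood apart from Gprc5b (0.802) and most from Synj2 (1.15). The median of all genes was 1.4 to 1.43. These values are descriptions, since the 2 DKO/hA1 chow libraries in which all members were chosen as high enter each profile. The genes closest to Gpr110 were Raet1e (0.259), a ligand of the NKG2D receptor, Slco2a1 (0.339), a prostaglandin transporter, and Cyp2c55 (0.364), a cytochrome P450. Gm17746 was closest to both Gprc5b (0.309) and Tox2 (0.326), followed for Gprc5b, after Tox2, by Ppp1r13b (0.358), a p53-binding protein, and for Tox2, after Gprc5b, by Foxp1 (0.338), a forkhead transcription factor. Among the genes close to Synj2 were Abcc4 (0.428), a transporter of organic anions and cyclic nucleotides, and Armcx3 (0.459), a mitochondrial protein.

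**Figure D4:**
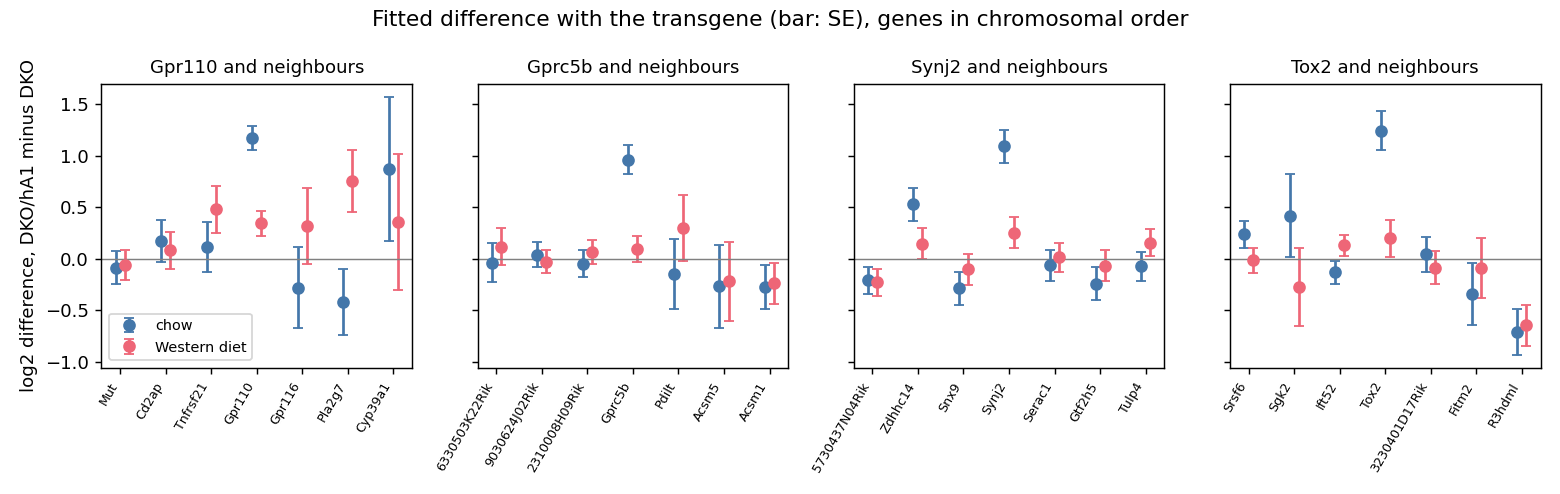
Difference with the transgene on chow (blue) and on Western diet (red) for the 4 genes and for the 3 tested genes on each side of each, in chromosomal order (log2(FPKM + 1), bars are the SE). On chow, the comparison that chose them, the 4 genes stand at 0.96 to 1.24. The 24 neighbours, which were not chosen by it, spread from -0.71 to 0.87 around a median of -0.08.

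The nearest tested genes on the same chromosome were set beside the 4 genes, with starts 90.1 to 2340 kilobases away. Of 24 tested neighbours, the 3 on each side of each gene, none was called in either transgene comparison. On chow 8 of the 24 had a positive difference, with a median of -0.08 and a range from -0.71 to 0.87. On Western diet 12 were positive, with a median of 0.00 and a range from -0.65 to 0.75. The medians over all genes tested were -0.01 and -0.02.

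Relatives of the 4 genes with a role in common were compared by lists. Of 29 adhesion receptors in the table, 13 were tested, and of the 12 other than Gpr110 none was called in either transgene comparison. Their median difference was -0.11 on chow, with 3 positive, and 0.10 on Western diet, with 9 positive. Among receptors of the same subfamily as Gpr110, group means of Gpr111 were 0 to 0.0406 FPKM, and those of Gpr115 were 0.0149 to 0.0248 FPKM. Gpr116, a member of that subfamily known from lung and endothelium, had means of 4.12 FPKM on chow and 2.66 on Western diet in DKO, and of 3.55 and 3.4 FPKM in DKO/hA1. The 7 tested genes of N-acylethanolamine synthesis and breakdown, the class of lipids that includes the ligand of Gpr110, had medians of 0.12 on chow and -0.07 on Western diet, and none was called. The 21 tested genes of Gs and cyclic AMP signalling had medians of 0.03 and 0.05, and none was called.

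For Gprc5b, the list held its family and the retinoic acid pathway. Of its 18 tested genes none was called, and the medians were -0.06 on chow and -0.07 on Western diet. Gprc5c, the abundant relative in liver, had group means of 17.2 to 20 FPKM. For Synj2, the 22 tested phosphoinositide phosphatases had medians of -0.01 and 0.00, and the 23 tested partners of synaptojanin in endocytosis had medians of 0.04 and 0.01, with none called. Synj1, its closest relative, had group means of 1.9 to 2.52 FPKM. For Tox2, the 8 tested genes of the TOX family and lymphoid regulators had medians of 0.07 on both diets, and none was called. Group means of Tox were 0.741 to 1.86 FPKM, lowest in DKO/hA1 chow, those of Tox4 were 6.98 to 8.03 FPKM, and Tox3 did not exceed 0.174 FPKM in any library.

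**Figure D5:**
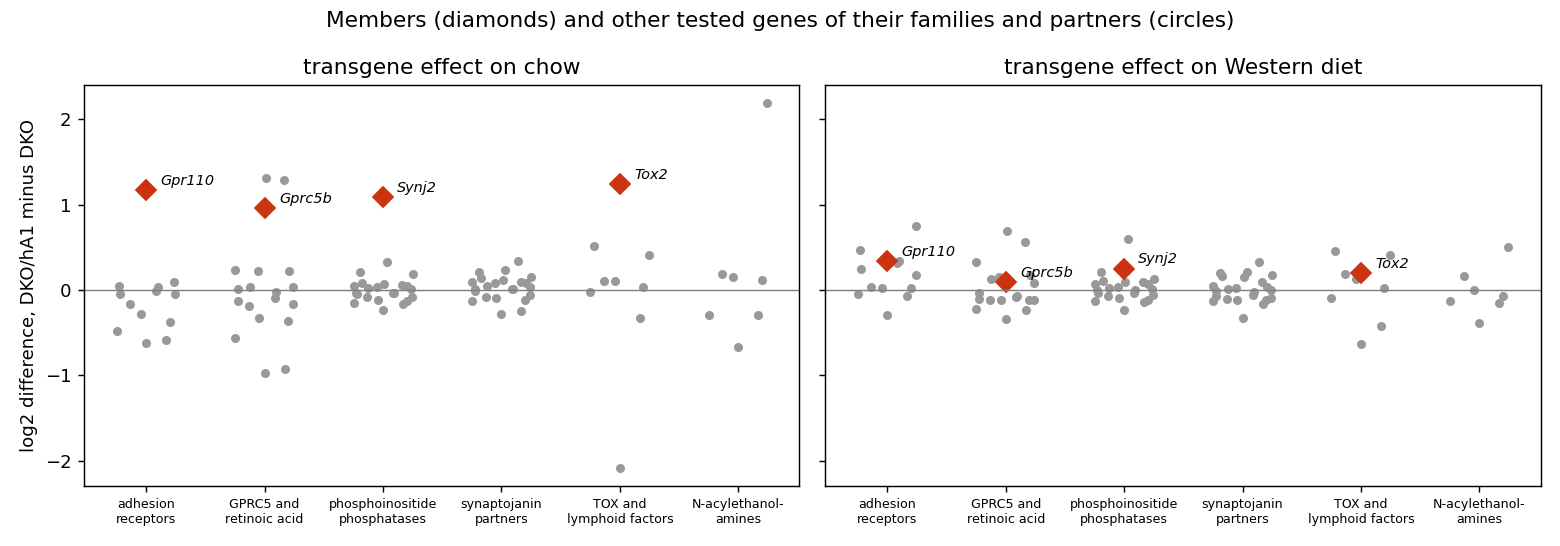
Transgene effect on chow and on Western diet (log2(FPKM + 1) difference) of the tested genes in 6 lists of relatives and pathway genes (circles, 1 per gene), with the 4 genes themselves as diamonds. List medians lie from -0.11 to 0.12 in both comparisons. The 4 genes lie at 0.96 to 1.24 on chow, the comparison that chose them. The highest circle on chow, Fabp5, lies at 2.19.

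Markers of liver cell types were set beside these levels. On chow, the summed markers of hepatocytes, cholangiocytes, macrophages and Kupffer cells, T and natural killer cells, B cells, neutrophils, sinusoidal endothelium and stellate cells overlapped between the genotypes for all 8 lists. By gene, all 7 macrophage and Kupffer cell markers were lower with the transgene on chow (median -0.83), all 7 neutrophil markers were higher (median 0.30), and none of these was called. On Western diet, macrophage and Kupffer cell markers summed to 731 to 936 FPKM with the transgene and 460 to 616 without it, and all 7 tested markers were higher, with a median of 0.67 and none called. Markers of T and natural killer cells summed to 11.9 to 28.2 FPKM with the transgene and 4.92 to 8.27 without it, and all 3 tested were higher, with a median of 0.82 and none called. Single genes weighed most in these sums. They were Cd5l for macrophages (means of 502 FPKM with the transgene and 292 without) and Ccl5 for T and natural killer cells (11.6 and 3.3). Ncr1, a natural killer cell marker too low to be tested, had a lower mean with the transgene (0.216 against 0.252). In DKO/hA1, macrophage and Kupffer cell markers summed to 88.8 to 272 FPKM on chow, below the Western diet range. T and natural killer cell sums were also lower on chow (9.28 to 10.3 FPKM). Stellate cell sums did the same (81.8 to 96.2 on chow, 101 to 144 on Western diet). B cell sums were higher on chow, as the 4 genes were (4.49 to 4.7, against 1.4 to 2.29). So were cholangiocyte sums (10.3 to 13, against 6.37 to 8.77). Sums of the other lists overlapped between the diets. In DKO, macrophage and Kupffer cell sums were also lower on chow (141 to 355 FPKM), where Gpr110 was higher and Synj2 lower. Neutrophil sums in DKO were lower on chow too (12.4 to 22.6 FPKM, against 94.6 to 941 on Western diet). Sums of the other lists in DKO overlapped between the diets. The part of these cells in the levels of the 4 genes was not tested. A clock index over core clock genes ran from -0.80 to -0.04 in DKO/hA1 chow and from -3.48 to -1.47 in DKO/hA1 Western diet, without overlap, and from -4.01 to 0.34 in DKO chow. Its part in the diet difference of DKO/hA1 was not tested.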

How the data were processed

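Liver RNA from 12 mice was sequenced in 4 groups, taken from the labels. Per the submitters' processing notes, TopHat 1.3.2, Bowtie 0.12.8, SAMtools 0.1.19 and Cuffdiff were used with mouse build mm10, and the annotation and counting settings are not given in the sources used here. The deposited table, though named for counts, holds FPKM: the values have decimals and library sums differ. A count test was planned, and limma on log2 FPKM was used in its place. The labels give separate samples with codes, some of which share a leading number of unstated meaning, so p-values measure the spread between these samples.

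From the 23284 genes, 787 small RNA genes and 21 genes at 0 throughout a group but abundant in another were left out, and 10930 stayed below 1 FPKM in 2 libraries, which left 11546. Values were scaled with trimmed log ratios, which dropped a share of 0.3 by ratio and 0.05 by level, and an offset of 1 preceded the log2. The model held the 4 groups over all 12 libraries, with trended, robust variance (limma 3.58.1, R 4.3.3). It was also run on simulated data, but with planted changes larger than the members' Western diet differences. That run does not show whether differences as small as those of the members can be found. Tests were two-sided. Python 3.11.15, pandas 2.3.3, numpy 2.4.6 and matplotlib 3.10.9 gave the depth estimates and figures. Depth was read from the low values, of which 22.8 to 43.4% per library lay within 0.04 (log2) of a whole number of fragments, against 14.6% if evenly spread. It rests on transcript lengths from GENCODE vM21, so no count test was run.

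The members, gene lists and tests were chosen with earlier results of these data known. Genes other than the members were named as the 3 of closest profile, the next in rank on chow, or list members, and some genes that this rule names are not reported here. Promoter windows are from RefSeq (GRCm38.p6). Alternatives numbered 23 planned, of which 12 left out 1 library each, and 2 added after the data were seen.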

Additional observations from a re-analysis of the deposited data

How the results depend on the processing

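On Western diet, the transgene difference of each of the 4 genes kept its direction under every alternative that tested it. None of the 4 was called, but no alternative called any gene, so this says nothing particular about the 4. Gprc5b and Tox2 passed the level filter only through DKO/hA1 chow, so their p-values cannot decide whether they differed. The ranges were 0.28 to 1.07 for Gpr110, 0.05 to 0.38 for Gprc5b, 0.12 to 0.40 for Synj2 and 0.06 to 0.66 for Tox2. Leaving out each library in turn gave 0.28 to 0.41, 0.05 to 0.14, 0.14 to 0.32 and 0.06 to 0.27, and 0 to 0 genes called. Requiring 3 FPKM left Gpr110 alone of the 4 to be tested.

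Counts of calls over all genes moved more. For the transgene on chow, 9 genes were called, against 3 with 0.1 added, 27 without a level filter, 4 at 3 FPKM, 44 with only the 2 groups fitted, 26 with the sample code as a random block, 42 without the 2 libraries highest in neutrophil markers and 2 to 31 leaving out 1 library. For diet with the transgene, 166 became 69 with equal totals, 105 without a filter, 13 with only the 2 groups, 19 with the code block, 56 without the neutrophil pair and 7 to 187 leaving out 1 library. For diet without it, 13 became 8, 32 and 7 to 70 under the fit of 2 groups, the neutrophil pair and 1 library left out. The 2 calls for the interaction became 1 with equal totals or without the 2 shallowest libraries, 8 without a filter and 1 to 6 leaving out 1 library. The cause was not tested.

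With a replicate block, diet with the transgene gave 100 calls, the interaction 1, and Gpr110 on Western diet 0.34 ± 0.13. Replicate numbers did not pair the libraries: the deviations of 15 pairs of the same number correlated at -0.28 to 0.45, and 4 were above 0.1.

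Equal totals moved the median of all genes by 0.19 for the transgene on Western diet, by -0.18 for diet without the transgene and by 0.12 for the interaction. Depth limits the low groups of Gprc5b and Tox2, and Gpr110 in DKO Western diet, to few fragments.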

Other observations

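Female-biased liver genes differed in opposite directions with the transgene on the 2 diets, with none of the 8 tested genes called in either, nor for the difference between the diets (median 1.11). On chow all 8 were lower with the transgene, with a median difference of -0.32, and on Western diet all 8 were higher, with a median of 0.84. Diet without the transgene called 3 of the 8 lower (Slco1a4, Cyp3a44 and Cyp3a16), and the median over the 8 was -1.76. Cyp2a4, a steroid hydroxylase, was not among the 3, and its groups overlapped. Its means were 30.4 ± 25.5 FPKM in DKO chow and 13.6 ± 7.53 in DKO Western diet (SD). Among 11 male-biased genes, the median was -0.33 on chow and -0.07 on Western diet with the transgene, and -1.08 with diet in DKO, and none was called. The Y-linked genes Eif2s3y and Ddx3y were at 17.9 to 28.9 and 10.5 to 16.7 FPKM over the 12 libraries, and Xist, the transcript of the silent X chromosome in females, did not exceed 0.293 FPKM.

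Core clock genes gave a median transgene difference of -0.52 over 16 tested genes on chow and 0.13 on Western diet, with none called. Dbp, a clock output gene, ranged from 0.36 to 53.2 FPKM among the 4 DKO chow libraries, the reference group of the chow comparison. Bcl6, a transcriptional repressor, had means of 20.3 FPKM in DKO chow and 4.1 in DKO/hA1 chow. Fabp5, a fatty acid-binding protein, was higher on chow with the transgene by 2.19 ± 0.68 and was not called (limma adjusted p = 0.436).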
